A study of Mus musculus with 4 samples.

Results

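The MEF2 transcription factors and the class IIa histone deacetylases that repress them were followed in C2C12 cells, mouse myoblasts kept as a line, which fuse into myotubes once serum is reduced. The 8 genes are Mef2a, Mef2b, Mef2c and Mef2d, and Hdac4, Hdac5, Hdac7 (named Hdac7a in the scanner files) and Hdac9. They were found by gene name among the non-control probes, which gave 18 of 41174 probes, 10 for MEF2 factors and 8 for deacetylases. Cells were differentiated for 6 days in lowered serum, either untreated or given GDF8 every 24 h at 20 nM, that is recombinant myostatin, a muscle-restraining factor of the TGF-beta family. The labels give the horse serum of that medium as 2% in one place and 10% in another. Each of 4 arrays held 1 GDF8 RNA and 1 untreated RNA, with GDF8 in Cy5 on arrays 2 and 3 and in Cy3 on arrays 1 and 4. The labels call the arrays biological replicates without saying how cultures were kept apart, so p-values measure the spread between these samples, which may be technical.

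MEF2 proteins bind an A/T-rich site and, together with the MyoD family, switch on contractile and metabolic genes as myoblasts become muscle fibres. Class IIa deacetylases dock on MEF2 in the nucleus, bring in co-repressor complexes with HDAC3, and hold those genes down. Calcium- and energy-sensing kinases phosphorylate the deacetylases, 14-3-3 proteins then carry them to the cytoplasm, and MEF2 is freed. An mRNA array reads none of these protein steps, only how much transcript each member has.

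Of the 8 genes, 2 passed the test, in opposite directions. Mef2c, the MEF2 factor that rises late in differentiation, was 1.94-fold lower with GDF8. Hdac9, a deacetylase gene that also makes a catalytically inactive splice form, MITR, was 1.63-fold higher by its brightest probe. It was 1.75-fold higher by another, which was read on 3 arrays after a flagged spot was dropped. Of its 2 other probes, 1 showed no detected rise and 1 was too dim to test. Of the 15 member probes that could be tested, 1 was lower and 2 were higher at a limma adjusted p under 0.05. Over all 26877 probes tested, 1.95% were lower, 0.77% were higher, and 2.72% passed either way. The other 12 member probes had log2 ratios between -0.31 and 0.34, and none of them passed in any alternative setting tried. All log2 ratios below are GDF8 over untreated, and ± is the standard error of the limma fit (n = 4 arrays, unless given) or, for levels, the SD. In bulk RNA, fewer cells with a transcript and less of it per cell cannot be told apart.

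**Figure D1:**
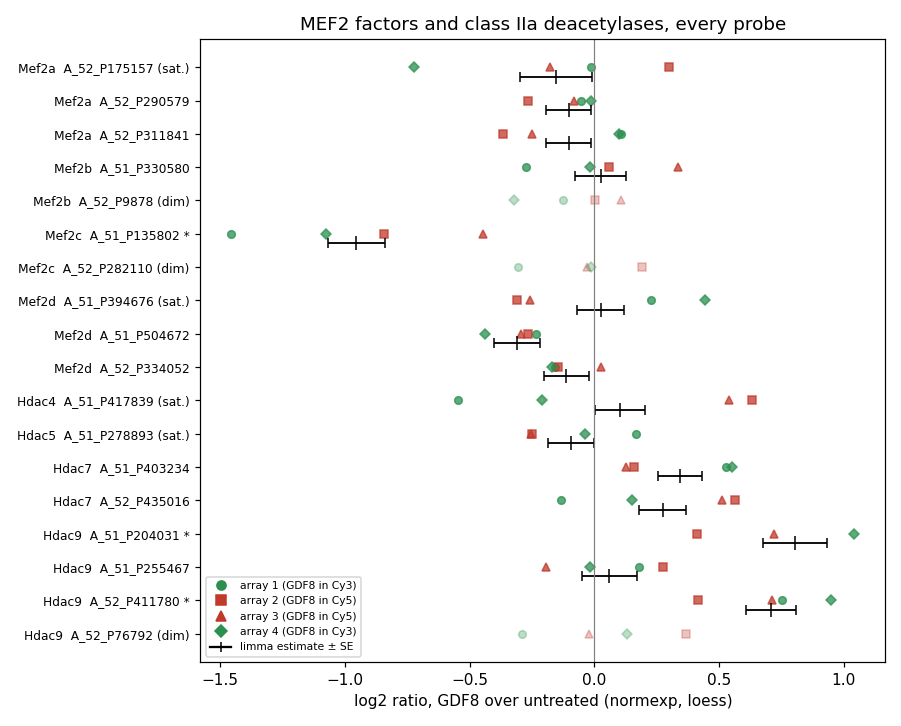
Log2 ratio of GDF8 over untreated cells (horizontal axis) for each of the 18 probes, with 1 point per array coloured by the dye that held GDF8 and the limma estimate ± SE below the points. Asterisks mark an adjusted p under 0.05, "sat." a probe with a saturated channel, and "dim" a probe that was not tested. Mef2c A_51_P135802 lies furthest to the left (-0.95) and Hdac9 A_52_P411780 (0.71) and A_51_P204031 (0.81) furthest to the right.

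The start regions of Mef2c and Hdac9 are shown because these are the 2 genes whose transcripts passed the test. The sequences are from RefSeq, build GRCm38.p6, in which all 8 genes had an entry, with 14 starts between them. Each holds the 250 bases before an annotated start, 5′ to 3′ on the gene's strand: Mef2c start 1 at chr13:83503784-83504033 (plus strand), Hdac9 start 1 at chr12:34917096-34917345 and start 2 at chr12:34528890-34529139 (both minus strand). Capitals mark E-boxes, the CANNTG letters that MyoD and myogenin can bind, and the MEF2 core, that is CTA and TAG with any 4 bases between them.
Mef2c start 1: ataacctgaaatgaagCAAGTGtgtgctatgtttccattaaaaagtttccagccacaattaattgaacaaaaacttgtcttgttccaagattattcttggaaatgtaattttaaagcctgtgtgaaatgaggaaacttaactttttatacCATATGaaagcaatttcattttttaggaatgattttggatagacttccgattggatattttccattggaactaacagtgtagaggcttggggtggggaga
Hdac9 start 1: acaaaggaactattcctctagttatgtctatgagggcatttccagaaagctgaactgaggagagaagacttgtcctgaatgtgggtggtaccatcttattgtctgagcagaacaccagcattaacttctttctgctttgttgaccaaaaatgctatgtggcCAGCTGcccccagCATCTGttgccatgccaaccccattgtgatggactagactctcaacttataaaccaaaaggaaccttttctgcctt
Hdac9 start 2: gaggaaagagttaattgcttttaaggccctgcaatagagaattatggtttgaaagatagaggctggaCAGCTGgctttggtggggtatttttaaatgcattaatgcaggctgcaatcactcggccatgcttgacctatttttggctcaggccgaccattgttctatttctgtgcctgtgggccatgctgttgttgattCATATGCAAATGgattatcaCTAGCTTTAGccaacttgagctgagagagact
Mef2c start 1 holds 2 E-boxes, CAAGTG and CATATG, and no MEF2 core. Hdac9 start 1 holds 2 E-boxes, CAGCTG and CATCTG. Hdac9 start 2 holds 3 E-boxes, of which CATATG and CAAATG lie side by side, and the core CTAGCTTTAG at bases -32 to -23. Both strands were searched from 250 bases before each start to 50 after it, in 32851 such windows of all genes. An E-box was in 72.3% of them, the MEF2 core in 3.69%, and CAGACA, the CAGA box of Smad proteins, in 21.0%. CAGACA, on either strand, was in both Hdac9 windows, in the window of Mef2c start 2, and in those of Hdac7 starts 1 and 3. A match of letters is a description of the sequence, not a bound site.

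The full MEF2 consensus is stricter than the core in its A/T centre. It is looser at the ends, where T may come first and A last, so a match need not hold the core. It was in 3.19% of all windows and in 2 of the 14 windows of the members, those of Hdac5 and Mef2a. No window of Mef2c (3 starts) or Hdac9 (2 starts) held it. The stretches around it are shown beside those of all 6 genes with a match in a list of MEF2 target genes of muscle, whose array values are given further on. They lie at chr11:102230168-102230207 and chr7:67372849-67372875 for the members, and at chrX:73774323-73774362, chr11:5803852-5803891, chr3:123034996-123035035, chr2:67445913-67445952, chr4:95052231-95052270 and chr8:72318929-72318968 for Srpk3, Pgam2, Myoz2, Xirp2, Jun and Klf2, with the match in capitals.
Hdac5: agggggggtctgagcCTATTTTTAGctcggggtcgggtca
Mef2a: gccgaggcctgactcCTAAAAATAGcc
Srpk3: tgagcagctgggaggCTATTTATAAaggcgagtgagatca
Pgam2: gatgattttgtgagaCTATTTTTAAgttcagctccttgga
Myoz2: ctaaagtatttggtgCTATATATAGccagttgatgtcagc
Xirp2: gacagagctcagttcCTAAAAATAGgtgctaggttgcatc
Jun: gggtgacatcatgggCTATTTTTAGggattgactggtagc
Klf2: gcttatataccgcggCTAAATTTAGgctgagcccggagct
The Hdac5 match CTATTTTTAG ends 11 bases before the start, and the Mef2a match CTAAAAATAG spans the start, from base -2 to base 8. Hdac5 and Mef2a, the members with a match, had no probe past the threshold. The only Hdac5 probe was saturated in 2 GDF8 and 3 untreated channels, so part of any difference could not be read.

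Mef2c was read by A_51_P135802 (NM_025282), which was never saturated and was well above background in all 8 channels. Its normalised log2 intensity with GDF8 was 13.64, 14.76, 14.77 and 14.45 on arrays 1 to 4, a mean of 14.40 ± 0.53. In untreated cells it was 15.10, 15.60, 15.22 and 15.52, a mean of 15.36 ± 0.24. Every GDF8 level lay below every untreated level, which 3.43% of all probes with 4 ratios also showed. The log2 ratios within arrays were -1.46, -0.84, -0.44 and -1.08, deepest on array 1 and shallowest on array 3. Both arrays with GDF8 in Cy3 gave deeper ratios than both with GDF8 in Cy5, and the fitted dye effect was 0.31. The fit gave -0.95 ± 0.11 (95% confidence interval -1.22 to -0.68, limma adjusted p = 0.0121). The call ended when the levels were treated as 8 unpaired values (limma adjusted p = 0.140) and in the methods' t-test after Benjamini-Hochberg adjustment (0.391). Over all alternatives the adjusted p ran from 1.23e-07 to 0.391, and the log2 ratio from -1.14 to -0.86.

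A second Mef2c probe, A_52_P282110 (AK044643), was well above background in 0 GDF8 channels and 1 untreated channel, and was not tested. Its processed signals were 21.6, 19.6, 7.74 and 21.0 with GDF8 and 42.4, 11.4, 9.54 and 32.8 untreated, so the groups overlapped. It gives no reading of the fall seen with the other probe.

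Within each array, the Mef2c ratio was lower than that of each of the other 10 tested member probes that were never saturated. The mean difference ran from -0.65, against Mef2d A_51_P504672, to -1.66, against Hdac9 A_52_P411780, and Mef2c was the lower on all arrays with both ratios. An exact test of sign changes gave the smallest two-sided p that the arrays allow throughout, 1 in 8 for the probes with 4 arrays and 0.25 for the 1 with 3. Adjusted over these 10 comparisons, the exact p-values were 0.139 and 0.25, so none of the differences passed.

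The genes whose 4 ratios lay nearest to those of Mef2c, by Euclidean distance over the 4 arrays, were Gprc5c at 0.20, Myom1 at 0.29, Fn3k at 0.31, Fam78a at 0.32 and Ttn (A_51_P219312) at 0.32. Myom1 encodes myomesin of the sarcomere M-band and Ttn encodes titin, the elastic filament of the sarcomere. Gprc5c is an orphan receptor gene, and Fn3k encodes fructosamine-3-kinase. The Gprc5c ratios were -1.29, -0.90, -0.42 and -0.99, also deepest on array 1 and shallowest on array 3. A shallow array 3 was not particular to these genes. It was also seen in Myl2, Slc2a4 and Pgam2, described further on, but Prkaa2 was deepest there. The other Ttn probes gave ratios from -0.64 to 0.06, some of them with saturated channels. Of the other Myom1 probes, A_52_P564166 gave -0.99 ± 0.19 and A_52_P515744 gave -0.34 ± 0.10 (limma adjusted p = 0.179 for the latter). All 5 genes were chosen for their likeness to Mef2c, so their ratios are a description.

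**Figure D2:**
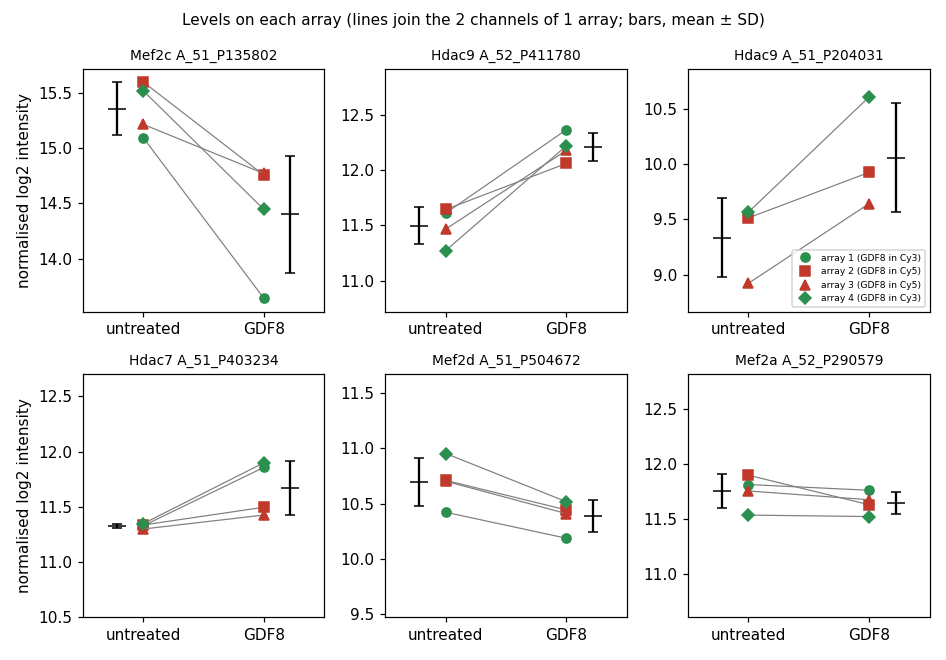
Normalised log2 intensity in untreated and GDF8 cells (vertical axis) for 6 member probes, where grey lines join the 2 channels of 1 array, colours give the dye that held GDF8, and bars give the mean ± SD. The GDF8 points of Mef2c lie below all its untreated points, and those of both Hdac9 probes and of the Hdac7 probe lie above theirs. Hdac9 A_51_P204031 is shown on 3 arrays.

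The remaining MEF2 factors showed no difference past the threshold. Mef2a, a family member found in most adult tissues, had 3 probes. A_52_P290579 (NM_001033713) gave log2 ratios of -0.05, -0.27, -0.08 and -0.01 on arrays 1 to 4 and an estimate of -0.10 ± 0.09 (limma adjusted p = 0.822). A_52_P311841 (NM_001033713) gave 0.11, -0.37, -0.25 and 0.10, with the same estimate of -0.10 ± 0.09 (limma adjusted p = 0.814). The first was below 0 on every array, while the other was above 0 where GDF8 was in Cy3 and below 0 where it was in Cy5. For both, GDF8 and untreated levels overlapped, and the 95% confidence interval of each lay between -0.32 and 0.11. A_52_P175157 (AK136368) gave -0.01, 0.30, -0.18 and -0.72, with an estimate of -0.15 ± 0.14. It was saturated in 2 GDF8 and 2 untreated channels, so part of any difference could not be read.

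Mef2d, whose muscle splice form escapes repression by protein kinase A, also had 3 probes. A_51_P504672 (NM_133665) gave log2 ratios of -0.24, -0.27, -0.29 and -0.44, which was lower with GDF8 on 4 of 4 arrays. Its GDF8 levels of 10.19, 10.44, 10.41 and 10.52 overlapped its untreated levels of 10.42, 10.71, 10.70 and 10.95. The estimate was -0.31 ± 0.09 (95% confidence interval -0.53 to -0.09), and it did not pass (limma adjusted p = 0.193). The same sign on all 4 arrays was seen in 15.6% of all probes with 4 ratios. A_52_P334052 (AK141270) gave -0.16, -0.14, 0.03 and -0.17, with an estimate of -0.11 ± 0.09.

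The brightest Mef2d probe, A_51_P394676 (BC040217), was saturated in 3 GDF8 and 4 untreated channels, and no fold is given. Its ratios of 0.23, -0.31 and -0.26 on arrays 1 to 3 were those of other saturated probes, such as Myl1 and Mb, at 0.23, -0.31 and -0.26 each. The probe therefore gave no measure of Mef2d.

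Mef2b, the family member best known from germinal centre B cells, was dim. A_51_P330580 (D87834) was well above background in all 8 channels, with log2 ratios of -0.27, 0.06, 0.34 and -0.02 and an estimate of 0.03 ± 0.10 (limma adjusted p = 0.967). Its GDF8 levels, from 9.06 to 9.13, lay within the range of its untreated levels, from 8.76 to 9.33. A_52_P9878 (NM_008578) was well above background in 2 GDF8 and 2 untreated channels and was not tested. Its processed signals were 31.4 to 62.6 with GDF8 and 36.9 to 60.5 untreated, so the groups overlapped.

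Among the deacetylases, Hdac9 had 4 probes, which did not give 1 answer. A_52_P411780 (NM_024124) was well above background in all 8 channels and never saturated. Its normalised log2 intensity with GDF8 was 12.37, 12.06, 12.18 and 12.22, a mean of 12.21 ± 0.13. In untreated cells it was 11.61, 11.65, 11.47 and 11.27, a mean of 11.50 ± 0.17. Every GDF8 level lay above every untreated level, as in 2% of all probes with 4 ratios. The log2 ratios were 0.76, 0.42, 0.71 and 0.95, above 0 on 4 of 4 arrays and in both dye orientations. The fit gave 0.71 ± 0.10 (95% confidence interval 0.47 to 0.94, limma adjusted p = 0.0164).

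A_51_P204031, which carries the same accession (NM_024124), gave log2 ratios of 0.41, 0.72 and 1.04 on arrays 2, 3 and 4. These differed from the ratios of A_52_P411780 on the same arrays by 0.094 or less. The estimate was 0.81 ± 0.13 (n = 3 arrays, 95% confidence interval 0.49 to 1.12, limma adjusted p = 0.0349). Of these arrays only array 4, with the highest ratio, held GDF8 in Cy3. Without the dye term the estimate was 0.73 (limma adjusted p = 0.0920). GDF8 levels of 9.93, 9.64 and 10.61 lay above untreated levels of 9.51, 8.92 and 9.56. The share of all probes with 3 ratios that do so was not counted. The array 1 spot of A_51_P204031 was flagged by the scanner software as an outlier and left out. Both signals of that spot, 4187 with GDF8 and 7472 untreated, were far above those of arrays 2 to 4, which were 380 to 957 and 204 to 508. With the spot kept, its array 1 ratio was -0.85, the estimate was 0.33, and the call was lost (limma adjusted p = 0.796).

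The other pair of Hdac9 probes carries the accession AK173017. A_51_P255467 gave log2 ratios of 0.18, 0.27, -0.19 and -0.02, and an estimate of 0.06 ± 0.11 (limma adjusted p = 0.923). Its GDF8 levels of 8.70, 8.81, 8.79 and 8.49 overlapped its untreated levels of 8.52, 8.53, 8.98 and 8.51, and no rise was detected there. A_52_P76792 was well above background in 0 of 8 channels, with processed signals of 5.50 to 25.6 with GDF8 and 9.63 to 28.4 untreated. The Hdac9 calls thus rest on the NM_024124 probes alone. A_51_P255467 was lower than A_52_P411780 on 4 of 4 arrays, by a mean of -0.65 (SD 0.38). The exact two-sided p was 1 in 8, the smallest that 4 arrays allow, and adjusted over the 10 pairs of probes of a gene that were compared it was 0.625. Which part of the gene each probe reads is not given in the sources used here, so a difference between transcript forms was not tested.

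Both Hdac9 calls depended on the arrays used. That of A_52_P411780 was lost without array 3 (limma adjusted p = 0.0629) or without array 4 (0.0621), and in the methods' t-test after Benjamini-Hochberg adjustment (0.0752). Its estimate stayed between 0.63 and 0.78 and its adjusted p between 0.00198 and 0.0752 over all alternatives. That of A_51_P204031 was lost in 10 of 18 alternatives, among them each of the fits without array 2, 3 or 4, with adjusted p-values from 0.0196 to 0.987. In the authors' deposited table, which keeps the flagged spot, its estimate was 0.45 (limma adjusted p = 0.757).

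**Figure D3:**
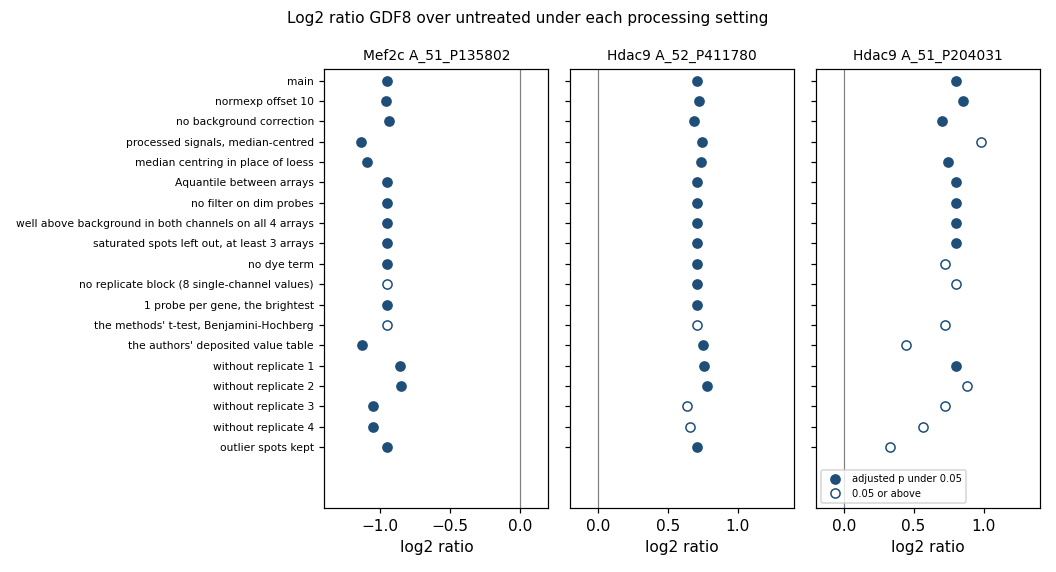
Log2 ratio of GDF8 over untreated (horizontal axis) for Mef2c A_51_P135802 and both Hdac9 probes of NM_024124 under each processing setting (vertical axis), with filled points where the adjusted p was under 0.05. The Mef2c estimates lie between -1.14 and -0.86, those of Hdac9 A_52_P411780 between 0.63 and 0.78, and those of Hdac9 A_51_P204031 between 0.33 and 0.98.

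Hdac7, known for repressing MEF2 in endothelium and thymocytes, was higher on average by both of its probes without passing the test. A_51_P403234 (NM_019572) had GDF8 levels of 11.86, 11.50, 11.43 and 11.90 and untreated levels of 11.33, 11.34, 11.30 and 11.35. The groups did not overlap, and the 2 GDF8 levels read in Cy3 were the higher ones. The ratios were 0.53, 0.16, 0.13 and 0.55, with an estimate of 0.34 ± 0.09 (95% confidence interval 0.13 to 0.55, limma adjusted p = 0.124). A_52_P435016 (NM_019572) gave -0.13, 0.57, 0.51 and 0.15, with an estimate of 0.27 ± 0.10 (limma adjusted p = 0.284) and levels that overlapped. Here the arrays with GDF8 in Cy5 gave the higher ratios, the reverse of the first probe. In all, 3 of the 14 member probes with 4 ratios had GDF8 and untreated levels that did not overlap, against 5.42% of all such probes.

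Hdac4, which represses muscle genes in denervated muscle, was read by 1 probe. A_51_P417839 (NM_207225) gave log2 ratios of -0.55, 0.63, 0.54 and -0.21. It was saturated in 1 untreated channel, on array 1. The sign followed the dye, above 0 with GDF8 in Cy5 and below 0 with GDF8 in Cy3, and the fitted dye effect was 0.48. The GDF8 estimate was 0.10 ± 0.10 (95% confidence interval -0.13 to 0.34, limma adjusted p = 0.842), 0.19 with the saturated spot left out and 0.020 without array 4. Hdac5, a substrate of CaM kinases and protein kinase D, was read by A_51_P278893 (NM_010412), with ratios of 0.17, -0.25, -0.25 and -0.04. The estimate was -0.09 ± 0.09 (limma adjusted p = 0.842). With 2 GDF8 and 3 untreated channels saturated, part of any difference could not be read.

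Of the other class IIa genes, Hdac7 alone was read by probes that were never saturated. The Hdac9 A_52_P411780 ratio was higher than that of Hdac7 A_51_P403234 by a mean of 0.37, on 4 of 4 arrays. It was higher than that of Hdac7 A_52_P435016 by a mean of 0.43, but not on array 2. The exact two-sided p was the smallest that 4 arrays allow for the first difference and 0.25 for the other. Adjusted over these 2 comparisons both were 0.25, and neither passed.

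The deacetylases of other classes did not pass in either direction. Of 14 HDAC and sirtuin genes measured by their brightest probe, 0 were lower and 0 were higher, with a median log2 ratio of -0.05. Over all 17606 genes and transcripts taken the same way, 2.31% were lower, 0.869% were higher, and the median was 0.01. The members of that list with the smallest p were Sirt5, a mitochondrial desuccinylase, at -0.19 ± 0.10, and Hdac3, the catalytic partner of class IIa enzymes, at 0.17 ± 0.10. Sirt7 at -0.13 ± 0.12 and Hdac11 at -0.14 ± 0.12 followed. That Sirt7 probe was saturated in 2 GDF8 channels and 1 untreated channel. The dimmer Sirt7 probe, also partly saturated, gave -0.02 ± 0.09. Of 16 co-repressor partners, Hdac3 among them, 0 passed as well, with a median of 0.01. Cbx5, which encodes heterochromatin protein HP1 alpha, stood at -0.13 ± 0.09 and Tbl1xr1, a subunit of the NCoR complex, at -0.08 ± 0.09. The dimmer probes of Tbl1xr1 disagreed, with A_52_P432170 at -0.63 ± 0.16 (limma adjusted p = 0.118) and A_52_P184160 at 0.06 ± 0.11.

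Among the kinases and 14-3-3 proteins that move class IIa deacetylases out of the nucleus, 2 of 27 genes were lower and 0 were higher. That is 7.41% lower, against 2.31% lower and 0.869% higher over all genes and transcripts. Camk2b, the beta chain of CaM kinase II, had log2 ratios of -1.44, -1.36, -0.81 and -1.64. The estimate was -1.32 ± 0.12 or 2.49-fold lower (limma adjusted p = 0.00638), and it was never saturated. Prkaa2, the alpha 2 catalytic chain of the energy sensor AMPK, had ratios of -0.54, -0.80, -0.93 and -0.48, with an estimate of -0.69 ± 0.09 (limma adjusted p = 0.0141). Both were below 0 on every array. Camk2a at -0.50 ± 0.14 and Camk4 at 0.27 ± 0.09 did not pass, and the list's median was 0.01.

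Of 25 activators and coactivators of MEF2, 1 was lower and 0 were higher, with a median of 0.02. This share of 4% lower is near the 2.31% of all genes and transcripts, of which 0.869% were higher. The lower gene was Ppargc1a, which encodes the coactivator PGC-1 alpha of mitochondrial biogenesis. Its ratios were -0.97, -1.18, -0.34 and -0.83, with an estimate of -0.83 ± 0.14 (limma adjusted p = 0.0331). Mapk11 at 0.16 ± 0.09 and Mapk12 at -0.16 ± 0.10, both p38 kinases, and Map2k5 at 0.14 ± 0.09 did not pass.

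Of 27 muscle genes known as MEF2 targets, 10 were lower and 0 were higher, with a median of -0.29. That is 37.0% lower, against 2.31% lower and 0.869% higher over all genes and transcripts. Myl2, the regulatory light chain of slow and cardiac myosin, was lowest at -2.01 ± 0.18 (limma adjusted p = 0.00688), with 1 untreated channel saturated. Slc2a4, the insulin-responsive glucose transporter GLUT4, stood at -1.19 ± 0.13. Pgam2, the muscle phosphoglycerate mutase, stood at -1.18 ± 0.13, and Srpk3, a muscle protein kinase, at -0.78 ± 0.09. The remaining 6 past the threshold were Myom1, Myoz1, Ppargc1a, Ckm, Xirp1 and Cox6a2, and Ppargc1a is also in the coactivator list. Cox6a2 was saturated in 2 GDF8 and 4 untreated channels, so the size of its difference could not be read. This list is of genes under MEF2 control in other work, and many also respond to MyoD and myogenin, so its counts do not single out MEF2. The list was drawn up with earlier results of these cells known and is not independent evidence of its direction.

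Saturation touched 16 of those 27 probes, against 24.1% of the brightest probes of all genes and transcripts. With each gene read by its brightest probe that was never saturated, 9 of 13 target genes were lower and 0 were higher, and the median was -0.78. By the same choice 2.66% of all genes and transcripts were lower and 1.05% higher, with a median of 0.01. Among them Myoz2, a calcineurin-binding Z-disc protein, was at -0.83 ± 0.12 by A_52_P403266 (limma adjusted p = 0.0190), while its brighter, partly saturated probe gave -0.30 ± 0.10. Without array 2 or without array 4, the count of lower target genes with the brightest probes was 4 and 5 in place of 10.

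The MEF2 consensus was in 6 of the 29 start windows of the target list (20.7%), at Jun, Klf2, Myoz2, Pgam2, Srpk3 and Xirp2, against 3.19% of all windows. By brightest probe, 2 of those 6 genes (Pgam2 and Srpk3) were lower, and so were 4 of the 15 measured target genes with a window and no match. By brightest probe never saturated, 3 of 4 genes with a match (Myoz2 as well) and 3 of 5 without were lower. Xirp2, an actin-binding protein of muscle, stood at -0.07 ± 0.11. Jun at 0.04 ± 0.10 and Klf2 at 0.08 ± 0.11 had saturated channels in both groups.

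**Figure D4:**
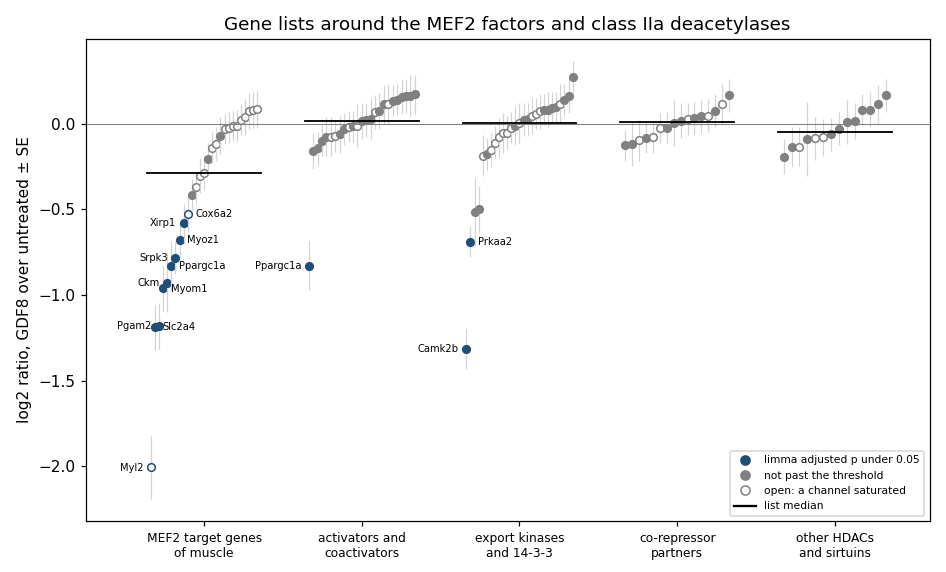
Log2 ratio of GDF8 over untreated ± SE (vertical axis) for the brightest probe of each gene in 5 lists around the members, ordered by value within a list, with the list median as a black line. Blue points passed an adjusted p of 0.05, and open points had a saturated channel. Of the 10 lower MEF2 target genes, Cox6a2 was saturated in every untreated channel and has no readable size, and the others reach from -0.58 to -2.01, while the other 4 lists have medians between -0.05 and 0.02.

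The labelled cell type was checked against marker genes. All 10 skeletal muscle markers were well above background on all arrays of a group, 8 of them saturated in a channel of their brightest probe, and Actn2 (-1.39 ± 0.15) and Ckm (-0.93 ± 0.17) were lower. Mef2c is also abundant in endothelium, in B cells and myeloid cells, and in neurons. Of 6 markers each for these types, 2 each could be tested and none passed. Among these, Tek (0.35 ± 0.13) and Kdr (0.15 ± 0.09) mark endothelium, Csf1r (0.21 ± 0.11) marks myeloid cells, and Syt1 (0.17 ± 0.10) and Map2 (-0.15 ± 0.11) mark neurons. Pecam1, Emcn, Tie1, Ptprc, Slc17a7 and Snap25 were not well above background in any channel. The summed processed signal of the endothelial markers was 411 to 617 with GDF8 and 367 to 449 untreated, and that of the B and myeloid markers was 436 to 681 and 485 to 630. That of the neuronal markers was 6029 to 8709 and 6894 to 8973, and that of the muscle markers 377647 to 718402 and 343594 to 935252. The ranges of the groups overlapped in the 3 lists of other cell types. The muscle sum is made up mostly of saturated signals and gives no comparison of the groups.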

How the data were processed

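RNA of GDF8-treated and untreated C2C12 cells was compared on 4 arrays with swapped dyes. Per the file headers, Agilent Feature Extraction 9.1.1.1 wrote the deposited spot intensity (mean signal, local background and processed signal, the last already background-subtracted and dye-normalised), a log10 ratio of red over green, and other columns that flag saturation, outliers and signal well above background. The value table the authors deposited is in log2 ratios. At a tolerance of 0.001 they matched log2 of the processed GDF8 signal over the processed untreated signal in 100% of 40929 single-spot probes, and were not centred (medians 0.14, -0.09, -0.11 and 0.09). Per the series' design text the authors called genes by an unpaired t-test (threshold 0.05) together with a 1.6-fold change. Each array held 43379 non-control spots, of which 0.745% to 12.1% were saturated and 63.3% to 78.8% were well above background in a channel. The number of arrays limits the precision.

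In limma 3.58.1 under R 4.3.3, mean signals were corrected by normexp (offset 50) and normalised by loess within arrays, with control spots at weight 0. Outlier-flagged spots were dropped, and repeated spots of a probe were averaged. A probe was tested if at least 3 ratios were left and all 4 channels of GDF8 RNA, or all 4 of untreated RNA, were well above background. The fit had a GDF8 term and a dye term, leaving 2 residual degrees of freedom for probes with 4 ratios and fewer for the rest. Benjamini-Hochberg adjustment ran over 26877 probes, with a threshold of 0.05. The array is the block, since each ratio lies within it. Single-channel levels are loess-normalised log2 values after Aquantile, and levels of different probes are not compared. The fit was tested on simulated data.

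Every member probe is named, with up to 4 genes of smallest p per list and the 5 genes nearest to Mef2c. Genes named beyond this, such as the further MEF2 targets, were chosen after their values were seen. Values of some single genes are not reported here. Members and lists were chosen with earlier results of these data known. Probes were named through RefSeq names of GRCm38.p6 (24375 by accession, 6301 by symbol and 2426 by synonym) and 8072 kept the file's name. The genome build of the array is not given in the sources used here. Alternatives covered background correction, normalisation, the filter, saturation, the dye term, the block, probe choice, the methods' t-test, the deposited table and each array left out. Keeping the outlier spots and using probes never saturated were chosen after seeing the data.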

Additional observations from a re-analysis of the deposited data

Results flagged for a closer look

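Dixon's test was run on 74 groups of 4 values, from member probes and from the genes with smallest p in the lists around them. In 3 groups, all of member probes, a sample lay far from the others, and chance flags about 1 in 20 groups. The untreated level of Hdac9 A_51_P255467 was 8.98 on array 3 and 8.51 to 8.53 on the others. The GDF8 level of Mef2a A_52_P175157 was 15.045 on array 4 and 15.60 to 15.72 on the others, in a probe with saturated channels. The log2 ratio of Mef2d A_52_P334052 was 0.025 on array 3 and -0.17 to -0.14 on the others.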

How the results depend on the processing

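Higher and lower probes numbered 207 and 523, and 30 to 159 and 184 to 452 with 1 array left out. With no replicate block, that is with the channels of an array not paired, 64 were higher and 286 lower, 0 member probes lower, 1 higher and 6 MEF2 targets lower. Without the dye term the counts were 87 and 342. The processed signals gave 113 higher and the log2 values that the authors deposited gave 135. The methods' t-test gave 87 higher at its own threshold, and 25 and 76 after Benjamini-Hochberg adjustment, with 0 member probes either way (1 higher and 1 lower at its own threshold) and 2 targets lower. Higher member probes numbered 1 with processed signals, no dye term, 1 probe per gene, the deposited table or outlier spots kept, and 0 to 2 with 1 array left out, where 1 was lower throughout and 4 to 8 targets were. The difference of Hdac9 A_51_P204031 and A_52_P411780 was -0.039 with median centring and 0.03 with loess and all 3 arrays. Signs that turned were all of uncalled probes. Mef2d A_51_P394676 turned to -0.020 with processed signals, -0.012 with median centring and -0.013 in the deposited values, and ran from -0.029 to 0.081 with 1 array left out. With 1 array left out, Hdac9 A_51_P255467 ran from -0.057 to 0.18, Mef2b A_51_P330580, from -0.044 to 0.096, and Mef2a A_52_P175157, from -0.33 to 0.024. The cause of these changes was not tested. Probes near background or at the ceiling limit what can be read.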
